A study of Drosophila melanogaster with 9 samples.

Results

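The odorant-binding protein (Obp) genes of Drosophila melanogaster were described in 9 RNA libraries of whole larvae. The set is every protein-coding gene whose symbol begins with Obp followed by a digit, which gave 51 genes of the 17714 genes (13895 of them protein-coding) for which deposited transcript counts could be summed. The rule used names only and no measured value. By chromosome, 29 of the genes lie on 2R, 12 on 3R, 6 on X, 2 on 2L and 2 on 3L. Their symbols carry the number of the cytological division where they lie and so fall into 22 clusters by number. In 20 cases one Obp gene is followed by the next with no other coding gene between them, and 18 of these pairs lie under 2 kb apart.

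The study asked how transcript levels change when the X chromosome is in excess. The libraries, 3 per group, are of third-instar larvae raised at 25 °C: normal diploid females with 2 X chromosomes, normal diploid males with 1, and metafemales, which carry 3 X chromosomes over a diploid set of autosomes. Per the study's methods, females and males were Canton S, a wild-type strain. Metafemales came from females of the attached-X stock C(1)DX, ywf/winscy crossed with Canton S males, and were picked as larvae by sex and mouthpart colour. Chromosome number and the parental stock therefore cannot be told apart in any comparison with the metafemales. The stage within the third instar is not given in those methods, so a difference in stage cannot be told apart from them either. RNA was total RNA depleted of ribosomal RNA. The labels do not say whether the libraries of a group came from separate cultures, so p-values measure only the spread between these samples, which may be technical.

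Odorant-binding proteins are small secreted proteins, held together by disulphide bridges, that carry hydrophobic molecules through aqueous fluid. They are best known from the lymph around the dendrites of olfactory and gustatory neurons, where support cells release them, and many of the fly genes are also transcribed in tissues without a chemosensory role, among them fat body, glia and the male reproductive tract. Tandem duplication is common in the family, so that neighbours on the chromosome are often close relatives.

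The deposited counts came to between 138223737 and 184268612 per female library, between 130919406 and 177910781 per male library and between 139954374 and 168844124 per metafemale library. In CPM (counts scaled to a library total of 1e6), 3 counts, the least treated here as detectable, correspond to 0.0163 to 0.0229, and such limits cover counting error only. The Y-linked genes kl-3, kl-5 and ORY had no count in any female or metafemale library and were at 130.2, 51.15 and 11.29 CPM on average in males. Set against females, metafemales had a median ratio of 1.32 over 2001 X-linked genes and 0.904 over 10490 autosomal genes. One library stood apart, since transcripts assembled by the authors outside the annotation took 13.4% of the counts of metafemale replicate 1 and 24.6 to 32.6% of the counts of every other library. Results that depend on this library are given with and without it.

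Odorant-binding protein transcripts were abundant in these larvae, and most of them came from 1 gene. The summed level of the 51 genes was 5332, 4743 and 5608 CPM in the 3 female libraries, 7073, 4606 and 7447 CPM in the males, and 1777, 2310 and 2518 CPM in the metafemales. All 3 metafemale libraries lay below all 6 others. Obp99b supplied 84.6% of the sum in females, 85.7% in males and 66.7% in metafemales, and the top 4 genes together supplied 97.3, 97.5 and 92.2%. Without Obp99b the sum was 803 ± 167 CPM in females, 913.0 ± 80.8 CPM in males and 734 ± 83.2 CPM in metafemales (SD, n = 3 libraries each), and the female and metafemale libraries overlapped. On this sum the metafemale libraries, at 642, 754 and 805 CPM, all lay below the lowest male library at 841 CPM.

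**Figure D1:**
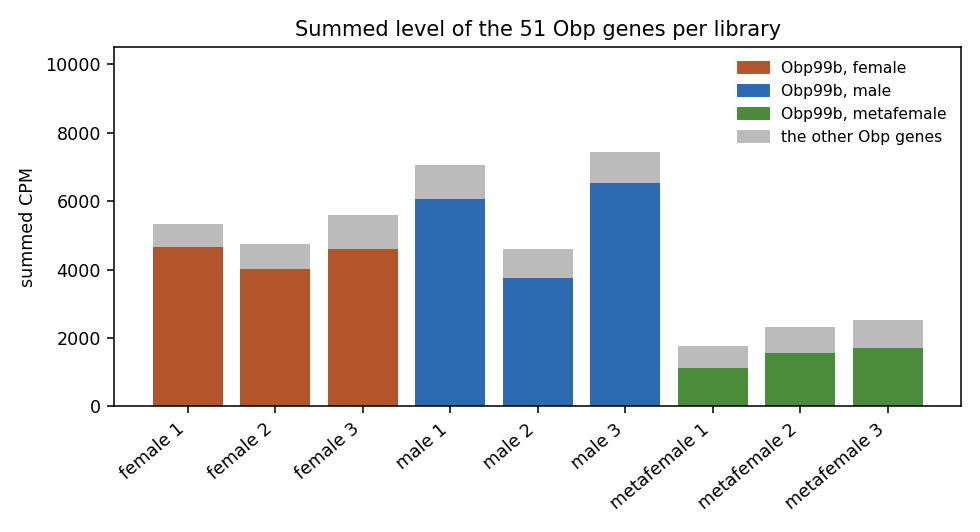
Summed CPM (vertical axis) of the 51 Obp genes in each of the 9 libraries (horizontal axis), with Obp99b as the coloured lower part of each bar and the other Obp genes as the grey upper part. The 3 metafemale bars end between 1777 and 2518 CPM, below the lowest of the other bars at 4606 CPM, and the grey parts span 642 to 1000 CPM.

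At the other end of the family, Obp56f had no count in any library, and Obp22a, Obp56f, Obp85a and Obp93a had at most 3 counts in every library. A mean of at least 1 CPM in any group was reached by 20 genes, and 22 genes had a count in every library. On a scale that allows genes to be compared, CPM per kb of transcript, the female means of the highest genes were 7656 ± 609 for Obp99b, 501 ± 60.02 for Obp99c, 356 ± 128 for Obp56d, 243 ± 27.4 for Obp44a, 81.4 ± 25.3 for Obp56a and 76.7 ± 7.25 for Obp99a (SD, n = 3). The 1 SD ranges of Obp99c and Obp56d, of Obp56d and Obp44a, and of Obp56a and Obp99a overlapped. Within each of the 3 female libraries, however, Obp99c was above Obp56d (463, 469 and 570 against 254, 316 and 500 CPM per kb) and Obp56d above Obp44a (225, 229 and 274 CPM per kb). For Obp56a and Obp99a the order differed between libraries. In metafemales Obp56d, at 378 ± 104 CPM per kb, had the higher mean of the pair with Obp99c, at 356 ± 39.6 CPM per kb, and these ranges overlapped as well. That order of the means came from metafemale replicate 3 alone. The metafemale libraries were at 312, 389 and 368 CPM per kb for Obp99c and at 273, 382 and 480 CPM per kb for Obp56d.

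**Figure D2:**
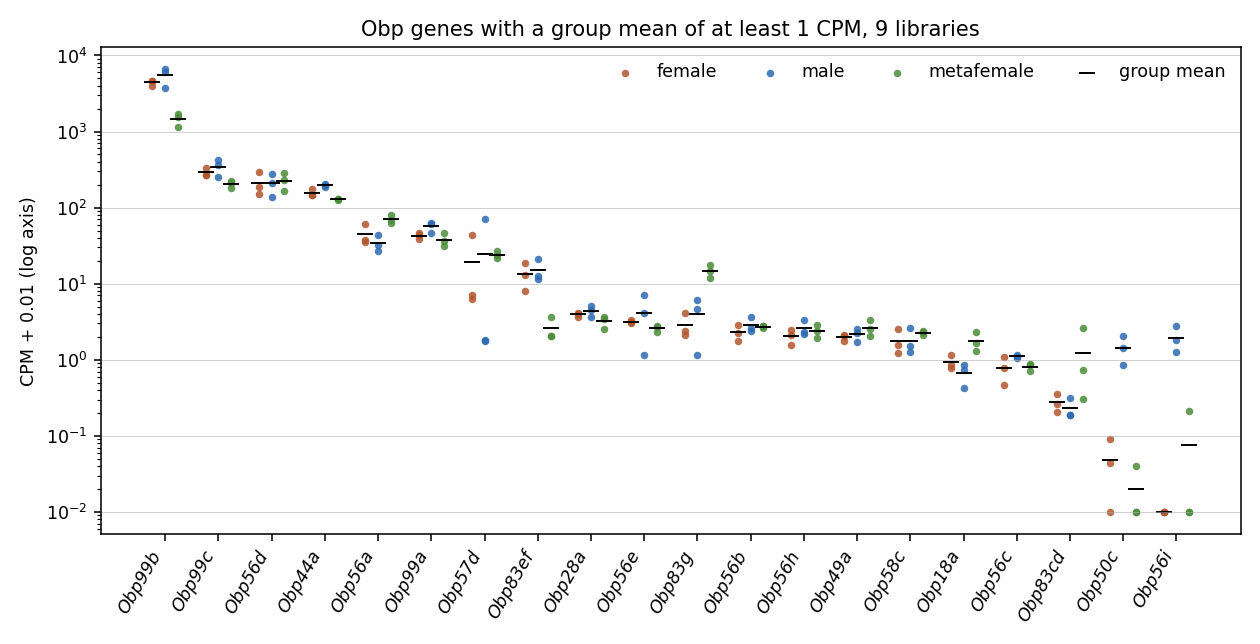
CPM plus 0.01 on a log axis (vertical) for the 20 Obp genes that reached a mean of 1 CPM in any group (horizontal axis), 1 point per library, with a bar at each group mean. The metafemale points lie below the others for Obp99b and Obp83ef and above them for Obp83g, while only the male points of Obp56i and Obp50c reach 0.5 CPM.

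For metafemales against females, 28 of the 51 genes had enough counts to be tested, and 23 did not. Calls needed a log2 fold change over 1 in size together with an adjusted p under 0.05 (edgeR quasi-likelihood test, adjusted over all genes tested). Obp83g and Obp57b were called higher, where 9.75% of the 11995 genes tested across the genome were called higher. Obp99b, Obp83ef and Obp50d were called lower, where 4.83% of the genes tested were. The other 23 tested Obp genes were not called. The libraries of the 2 groups did not overlap in CPM for 12 of the 28 tested Obp genes, beside 50.6% of all genes tested. The median log2 fold change of the tested Obp genes was -0.10, beside -0.03 for all genes tested. The comparisons with males, given below beside each gene, share libraries with this one and are not independent of it.

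**Figure D3:**
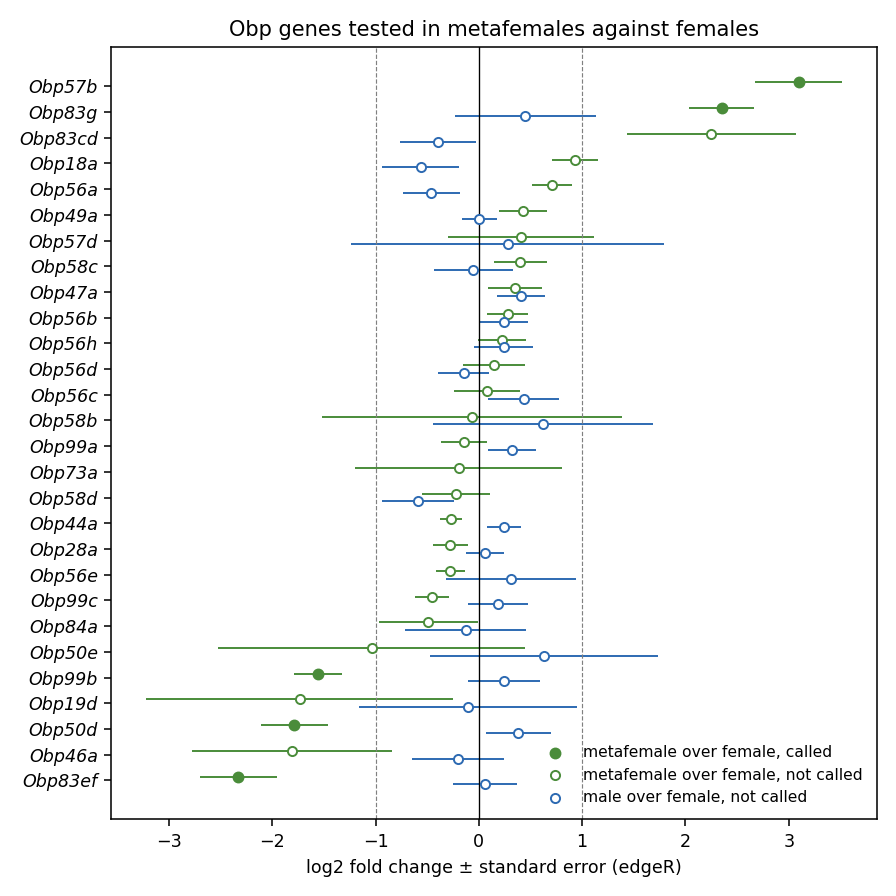
Log2 fold change with its standard error (horizontal axis, edgeR) of the 28 Obp genes tested in metafemales against females (vertical axis), metafemales over females in green and, where tested, males over females in blue. Filled points are called and open points are not, and dashed lines mark a log2 fold change of 1 in either direction. The 5 filled points are Obp57b and Obp83g on the right and Obp99b, Obp50d and Obp83ef on the left, and no blue point is filled.

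Obp99b (3R, 29716254 to 29716896, minus strand, assembly BDGP6.54) was the gene with the highest level in every group and was lower in metafemales. It is also known as turn on sex-specificity, from its sex-dependent transcription in fat cells of the adult male head. Its levels were 4651, 4008 and 4615 CPM in females, 6072, 3765 and 6548 CPM in males and 1135, 1556 and 1713 CPM in metafemales. Every metafemale library lay below every other library, whereas male replicate 2 lay below all females. The metafemale mean was 0.332 times the female mean, and the log2 fold change was -1.56 ± 0.23 (SE, adjusted p = 0.00339). Against males the log2 fold change was -1.77 ± 0.41 (SE, adjusted p = 0.0123). Males and females did not differ past the threshold (log2 fold change 0.24 ± 0.35, SE, adjusted p = 0.756).

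Whole larvae hold many tissues, and fewer cells of a type cannot be told apart from less RNA per cell in these libraries. The 7 fat body markers were all detected, with a summed level of 48400 to 63800 CPM in the female, 36200 to 47500 CPM in the male and 41800 to 60300 CPM in the metafemale libraries. The highest metafemale value was that of replicate 1. Without it the metafemale libraries were at 41800 and 45700 CPM, below every female library. Of these 7, only Fbp1 was called lower in metafemales than in females (log2 fold change -2.51, adjusted p = 0.0112). Fbp2 (-0.83, adjusted p = 0.00268) and Lsp2 (-0.80, adjusted p = 0.00629) passed on adjusted p but not on the size of the change, and Lsp1gamma was at 0.73 (adjusted p = 0.11). In males against females, Fbp1 (-1.71, edgeR adjusted p = 0.00848) and Fbp2 (-1.11, edgeR adjusted p = 0.0115) were called lower. Fbp1 was not called in metafemales against males (-0.77, edgeR adjusted p = 0.312). The 5 glue protein genes that mark the salivary gland summed to 6110 to 7650 CPM in the female, 6960 to 9570 CPM in the male and 908 to 1900 CPM in the metafemale libraries, and all 5 were called lower in metafemales than in females. The 5 muscle markers moved the other way, with 3660 to 6160 CPM in females and 9210 to 17700 CPM in metafemales, and 4 of the 5 were called higher. The 6 midgut markers summed to 2490 to 3060 CPM in females and 4120 to 5130 CPM in metafemales, with 2 called higher. The parts of tissue proportions and of stage within the third instar in the Obp results were not tested.

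The 2 annotated transcripts of Obp99b differed in how counts were assigned to them. The 574-base transcript had 410901 to 498018 counts in the female, 505520 to 669804 in the male and 158904 to 289283 in the metafemale libraries, so the metafemale libraries were the lowest on this transcript alone. The 586-base transcript had 359081, 122430 and 226999 counts in females, 303086, 3 and 268294 in males, and 1 count in each metafemale library. It was thus near 0 in the metafemales and in male replicate 2. The counts are estimates that divide reads of shared exons between transcripts, and the gene-level values above are the sums.

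The other genes of the Obp99 cluster, which spans 45.2 kb with other coding genes between its members, did not pass the threshold in any comparison. Obp99c was at 268, 272 and 330 CPM in females, 359, 254 and 417 CPM in males and 181, 226 and 214 CPM in metafemales, with all metafemales below all others and a log2 fold change against females of -0.45 ± 0.17 (SE, adjusted p = 0.07). Obp99a was at 43.6, 38.7 and 46.8 CPM in females, 61.2, 46.5 and 62.5 CPM in males and 30.9, 47.0 and 36.0 CPM in metafemales, and the groups overlapped (log2 fold change -0.14 ± 0.22, SE, adjusted p = 0.642). Obp99d was nearly silent, with 0 to 4 counts in females and at most 17 counts in any library. The cluster sum, 4758 ± 381 CPM in females and 1713 ± 324 CPM in metafemales, therefore followed Obp99b.

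Ratios formed within a library do not depend on its total, and they were computed for pairs of neighbours chosen after their values were seen. Counts of Obp99b over Obp99c were 17.3, 14.7 and 14.0 in females, 16.9, 14.8 and 15.7 in males, and 6.27, 6.9 and 8.03 in metafemales. Obp99b over Obp99a was 107, 104 and 98.7 in females, 99.2, 81.0 and 105 in males, and 36.7, 33.1 and 47.6 in metafemales. Both ratios separated the metafemales from all other libraries, with p = 0.1 in the exact permutation test (two-sided, unadjusted, 3 ratios computed), the smallest that 20 assignments of 3 against 3 can give.

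Within the Obp83 cluster on 3R, adjacent genes changed in opposite directions in metafemales. Obp83ef (6109642 to 6111034, minus strand) was at 8.02, 18.9 and 13.1 CPM in females, 11.5, 20.9 and 12.7 CPM in males and 2.07, 2.03 and 3.64 CPM in metafemales. Obp83g (6111671 to 6112302, minus strand), which lies 0.636 kb further along the chromosome, was at 4.08, 2.35 and 2.11 CPM in females, 4.61, 1.16 and 6.19 CPM in males and 17.5, 14.6 and 12.0 CPM in metafemales. The metafemale libraries lay outside the range of all 6 others for both genes, below it for Obp83ef and above it for Obp83g.

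Against females, the log2 fold change was -2.33 ± 0.37 for Obp83ef (SE, adjusted p = 0.00431) and 2.35 ± 0.31 for Obp83g (SE, adjusted p = 0.00241). Both calls held without any single library. Against males it was -2.35 ± 0.32 for Obp83ef (SE, adjusted p = 0.0013) and 1.92 ± 0.65 for Obp83g (SE, adjusted p = 0.0492). The last of these was close to the threshold. It was not called without male replicate 1 (adjusted p = 0.124) or without metafemale replicate 1, 2 or 3 (adjusted p = 0.11, 0.109 and 0.0825). The within-library ratio of Obp83g to Obp83ef counts was 0.509, 0.124 and 0.162 in females, 0.402, 0.0553 and 0.489 in males, and 8.42, 7.19 and 3.31 in metafemales, so that the more abundant gene of the pair was Obp83ef in all 6 control libraries and Obp83g in all 3 metafemale libraries. The exact permutation test gave p = 0.1 for metafemales against females and p = 1.0 for males against females (two-sided, unadjusted, 20 assignments). This pair too was chosen after its values were seen. Both genes already separated metafemales from females, in opposite directions, so their ratio had to separate them as well. The value of 0.1 is the smallest the test can give and adds no support. Males and females differed past the threshold in neither gene, with a log2 fold change of 0.06 ± 0.31 for Obp83ef and 0.45 ± 0.68 for Obp83g (SE, adjusted p = 0.944 and 0.772).

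**Figure D4:**
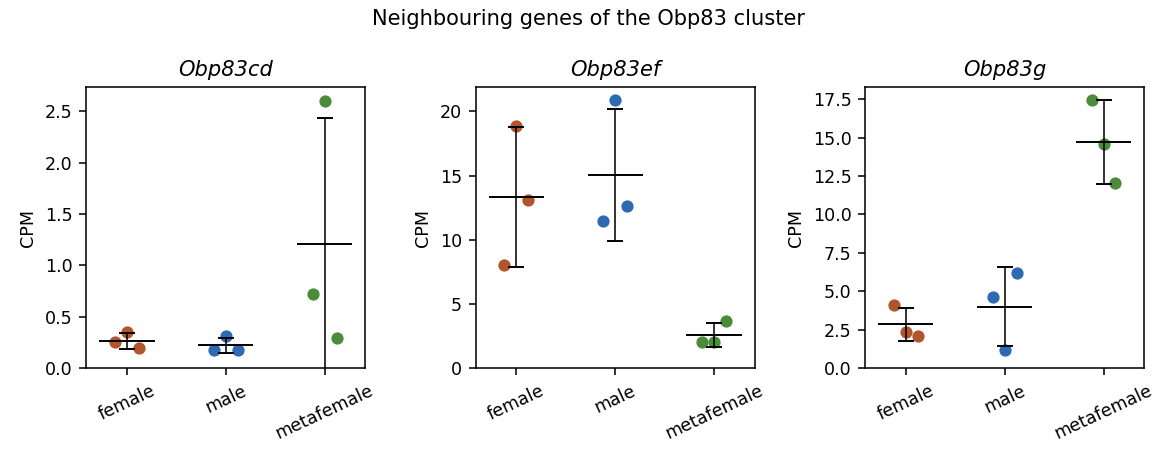
CPM (vertical axes, a separate scale for each gene) of Obp83cd, Obp83ef and Obp83g in females, males and metafemales, 1 point per library, with the group mean and SD (n = 3; the lower end of the metafemale SD bar of Obp83cd is hidden below 0). Metafemale points are the lowest for Obp83ef, between 2.03 and 3.64 CPM, and the highest for Obp83g, between 12.0 and 17.5 CPM.

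Obp83cd, on the opposite strand, shares 92 exonic bases with Obp83ef. It was at 0.255, 0.347 and 0.195 CPM in females, 0.180, 0.309 and 0.176 CPM in males and 0.722, 2.60 and 0.296 CPM in metafemales. Metafemale replicate 2 was the high library, and replicate 3 overlapped the other groups. The log2 fold change against females was 2.25 ± 0.82 (SE, adjusted p = 0.0685), which was not called, and it was 0.84 (adjusted p = 0.226) without metafemale replicate 2. It was called without metafemale replicate 3 (2.71, adjusted p = 0.0281), by DESeq2 (2.27, adjusted p = 0.0058) and with all 9 libraries in 1 fit (2.26, adjusted p = 0.0468). Against males it was called (2.69 ± 0.83, SE, adjusted p = 0.0375), and this call was lost without male replicate 1, 2 or 3 (adjusted p = 0.116, 0.0723 and 0.0899) or metafemale replicate 2 (1.32, adjusted p = 0.0761). Whether counting used the strand of the reads is not given in the sources used here, so the antisense reads of Obp83cd and Obp83ef may not have been kept apart. Summed over its 5 members, the cluster overlapped between the groups, at 16.5 ± 4.66 CPM in females, 19.4 ± 3.09 CPM in males and 18.5 ± 2.24 CPM in metafemales (SD, n = 3).

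The remaining members of this cluster, Obp83a and Obp83b, are known from odour-sensing hairs of the adult antenna and were close to the count floor here. Obp83a had 20, 3 and 8 counts in females, 7, 27 and 0 in males and none in metafemales, and was too low to be tested by edgeR, while DESeq2 (adjusted p = 0.0113) and edgeR without its filter (adjusted p = 0.0376) called it lower in metafemales than in females. Obp83b had 0, 0 and 6 counts in females, 20, 18 and 17 in males and none in metafemales. All 3 males lay above the other libraries. The metafemale level was at least 6.68-fold lower than the male level, with the floor of 3 counts taken in each metafemale library (edgeR adjusted p = 0.0039). For males against females the log2 fold change of Obp83b was 3.11 ± 1.13 (SE, adjusted p = 0.125), and it was called only without female replicate 3, the female library that held all 6 counts (7.30, adjusted p = 0.0146).

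Obp50d and Obp57b completed the calls against females, both at low levels. Obp50d was at 0.391, 0.707 and 0.760 CPM in females, 0.676, 0.995 and 0.894 CPM in males and 0.172, 0.185 and 0.166 CPM in metafemales. The metafemales lay below all other libraries, with a log2 fold change of -1.79 ± 0.33 against females (SE, adjusted p = 0.00687) and -2.14 ± 0.32 against males (SE, adjusted p = 0.00202). Obp57b had 5, 5 and 3 counts in females, 0, 6 and 0 in males and 32, 38 and 44 in metafemales. The metafemale mean, 0.239 CPM, was 8.71 times the female mean (log2 fold change 3.10 ± 0.42, SE, adjusted p = 0.00253). Obp57b was also called higher than in males (4.39 ± 0.91, SE, adjusted p = 0.00809), where 2 of the 3 libraries had no count. Obp57b entered both tests only through its counts in metafemales, and it was too low to be tested in males against females.

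For males against females, 31 Obp genes were tested. Obp56i, Obp50b and Obp50c were called higher in males, where 17.6% of the 13700 genes tested were called higher. These genes had no or few counts in females and entered the test only through their counts in males. With at least 10 counts required in every library they could not enter. Obp50b and Obp50c are 2 genes annotated over 1 identical transcript, and with their counts summed there were 2 calls. No Obp gene was called lower by edgeR, where 0.328% of the genes tested were. At an unadjusted p under 0.05 the number that was lower was 0 as well, and DESeq2 called 0 lower. The libraries of the 2 groups did not overlap in CPM for 7 of the 31 tested Obp genes, beside 29.2% of all genes tested. The median log2 fold change was 0.24 for the tested Obp genes and 0.01 for all genes tested.

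Obp56i (2R, 19864717 to 19868714, plus strand) is one of the odorant-binding protein genes whose products are known from the seminal fluid of adult males. It had no count in any female library, 166, 490 and 237 counts in the males, and 28, 0 and 0 counts in the metafemales. The males were thus at 1.25, 2.75 and 1.81 CPM and did not overlap the other groups. The male mean was at least 100-fold higher than the female level, with the floor of 3 counts taken in each female library (edgeR adjusted p = 0.000483). All counts of the metafemales came from replicate 1. Against males the metafemale log2 fold change was -4.83 ± 1.36 (SE, adjusted p = 0.0264), and the call was lost in 5 of the 6 fits that left out a library, all but the one without metafemale replicate 1, with adjusted p of 0.0509 to 0.0609, and under DESeq2 (adjusted p = 0.0611).

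The 7 seminal fluid genes of the family (Obp8a, Obp22a, Obp51a, Obp56e, Obp56f, Obp56g and Obp56i) were, apart from Obp56e and Obp56i, each below 0.04 CPM on average in every group. Obp56e was at 3.34, 3.05 and 3.13 CPM in females, 7.15, 1.13 and 4.06 CPM in males and 2.77, 2.30 and 2.72 CPM in metafemales. The male libraries spanned the other groups, and Obp56e was called in no comparison, except against males when male replicate 2 was left out (log2 fold change of metafemales over males -1.04, adjusted p = 0.0079).

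Obp50b and Obp50c are annotated over 1 identical 1648-base transcript on the same strand, so their counts cannot be told apart and only the sum is firm. The sum was 0, 5 and 11 counts in females, 212, 405 and 143 in males, and 0, 5 and 0 in metafemales. Every male library lay far above every other, and the male mean, 1.65 ± 0.594 CPM, was 43.9 times the female mean of 0.0376 ± 0.04 CPM (SD, n = 3). This ratio rests on few female counts and was 99.2 without female replicate 3 and 29.3 without female replicate 1. The log2 fold change of the summed counts was 5.38 (edgeR, adjusted p = 0.0048). As deposited, Obp50c had 0, 5 and 11 counts in females, 191, 363 and 109 in males and 0, 5 and 0 in metafemales, with a log2 fold change of 5.17 ± 0.92 (SE, adjusted p = 0.00653) in males against females and -6.77 ± 0.98 (SE, adjusted p = 0.00172) in metafemales against males. Obp50b had 21, 42 and 34 counts in the males and none elsewhere, at least 11.3-fold higher than in females (edgeR adjusted p = 0.00352) and at least 11.5-fold higher than in metafemales (edgeR adjusted p = 0.00255). Obp50a, 0.069 kb upstream, had 3, 26 and 4 counts in males and none in the other 6 libraries. It was too low for the edgeR filter. DESeq2 called it higher in males than in females (adjusted p = 0.0283), and both DESeq2 (adjusted p = 0.0158) and edgeR without the filter (adjusted p = 0.032) called it lower in metafemales than in males. The whole Obp50 cluster of 5 genes lies within 5.06 kb and summed to 0.838 ± 0.388 CPM in females, 2.87 ± 0.766 CPM in males and 0.275 ± 0.0905 CPM in metafemales. It thus held genes detected almost only in males beside Obp50d, for which the log2 fold change of males over females was 0.38 ± 0.32 (SE, adjusted p = 0.544).

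The 6 testis markers summed to 4.95 to 5.46 CPM in females, 27.6 to 44.3 CPM in males and 3.62 to 4.89 CPM in metafemales, and 5 of the 6 were called higher in males than in females. The meiotic arrest gene aly was at 5.01 CPM on average in males and at 0.00482 CPM in females. Whether Obp56i, Obp50b and Obp50c were transcribed in the testis was not tested.

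For metafemales against males, 32 Obp genes were tested. Obp57b, Obp56a, Obp18a, Obp83cd and Obp83g were called higher in metafemales, 5 genes, where 9.21% of the 13814 genes tested were called higher. Obp99b, Obp83ef, Obp83b, Obp69a, Obp56i, Obp50b, Obp50c and Obp50d were called lower, 8 genes, where 21.6% of the genes tested were. Obp83b, Obp69a, Obp56i, Obp50b and Obp50c had no or few counts in metafemales and entered the test through their counts in males. Obp57b had no or few counts in males and entered through its counts in metafemales. With at least 10 counts required in every library 6 genes were called, 3 of them lower. Libraries of the 2 groups did not overlap in CPM for 18 of the 32 tested Obp genes, beside 55.4% of all genes tested, and the median log2 fold change was -0.38, beside -0.13 for all genes tested. Without metafemale replicate 1, Obp18a and Obp83g were no longer called.

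Obp56a and Obp18a were above females and males alike in all metafemale libraries, but by less against females than the fold threshold requires. Obp56a was at 35.2, 37.9 and 60.4 CPM in females, 43.2, 26.7 and 32.4 CPM in males and 69.7, 63.7 and 79.1 CPM in metafemales. Its log2 fold change was 0.70 ± 0.19 against females (SE, adjusted p = 0.0285) and 1.19 ± 0.26 against males (SE, adjusted p = 0.00924), and without male replicate 2 the latter was 0.96 (adjusted p = 0.00434) and no longer past the fold threshold. Obp18a lies on the X chromosome (19135081 to 19135868, minus strand) and was the only X-linked Obp gene with a mean of at least 1 CPM in any group. Its levels were 0.776, 0.853 and 1.16 CPM in females, 0.834, 0.416 and 0.718 CPM in males and 2.34, 1.304 and 1.67 CPM in metafemales. The metafemale mean was 1.91 times the female mean, beside the median ratio of 1.32 of X-linked genes given above, with a log2 fold change of 0.93 ± 0.23 (SE, adjusted p = 0.0181). This passed the fold threshold without female replicate 3 (1.08, adjusted p = 0.0273) and without metafemale replicate 2 (1.06, adjusted p = 0.024). Against males the log2 fold change of Obp18a was 1.53 ± 0.39 (SE, adjusted p = 0.019), and without metafemale replicate 1 it was 1.39 (adjusted p = 0.059). The other 5 X-linked members, Obp8a and Obp19a to Obp19d, had group means of at most 0.127 CPM.

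Obp69a, known from the adult antenna, had 16, 3 and 1 counts in females, 12, 22 and 15 in males and none in metafemales. The metafemale level was at least 5.75-fold lower than the male level, with the floor of 3 counts in each metafemale library. Only the comparison with males could be tested (edgeR adjusted p = 0.00369). Males and females did not differ past the threshold (log2 fold change 1.301 ± 0.826, SE, adjusted p = 0.407), except without female replicate 1 (2.85, adjusted p = 0.0476). An antisense gene, CG32104, shares 53 bases with Obp69a and was at 5.34 CPM in females, 6.60 CPM in males and 5.28 CPM in metafemales.

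Obp57d, for which a role in the taste of plant acids is known, varied widely between the control libraries. Its counts came to 7.13, 6.29 and 44.3 CPM in females, 70.6, 1.75 and 1.83 CPM in males and 21.8, 24.0 and 26.6 CPM in metafemales. The female and male libraries each split, while the metafemale libraries were close together. Its log2 fold change against females was 0.41 ± 0.70 (SE, adjusted p = 0.673). Without female replicate 3 it was 1.84 (adjusted p = 0.00406), and against males it was 0.17 ± 1.32 (SE, adjusted p = 0.925), or 3.88 (adjusted p = 0.000899) without male replicate 1.

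The only transcript of Obp57d, of 1488 bases, is identical to a transcript of Cpr57A, a cuticle protein gene on the same strand. Cpr57A was at 80.2, 92.9 and 0 CPM in females, 0, 149 and 106 CPM in males and 0 in every metafemale library. The libraries in which Cpr57A was at 0 were the ones in which Obp57d was high. Summed over both genes, the level was 87.4, 99.2 and 44.3 CPM in females, 70.6, 151 and 108 CPM in males and 21.8, 24.0 and 26.6 CPM in metafemales, so every metafemale library lay below every other. The log2 fold change of the sum, an alternative added after the values were seen, was -1.66 against females (edgeR, adjusted p = 0.00909), -2.01 against males (edgeR, adjusted p = 0.00165) and 0.38 for males against females (edgeR, adjusted p = 0.638). For Obp57d alone, the log2 fold changes of metafemales against females and against males were smaller than their SE, so no direction was established, unlike for the sum. Which gene the counts belong to was not tested.

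**Figure D5:**
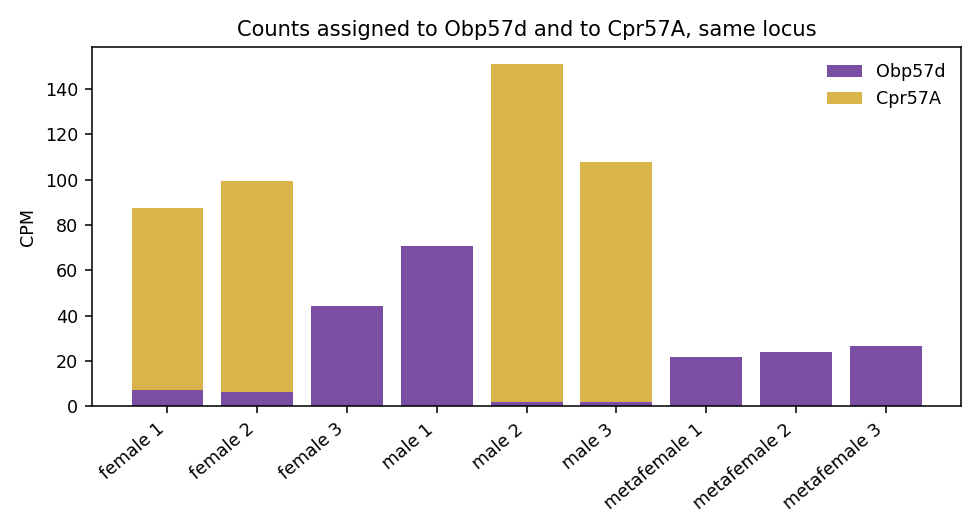
CPM (vertical axis) assigned to Obp57d (purple) and to Cpr57A (yellow), stacked, in each of the 9 libraries (horizontal axis). Yellow is absent from female replicate 3, male replicate 1 and all metafemale libraries, and the total height is 21.8 to 26.6 CPM in metafemales and at least 44.3 CPM in the other libraries.

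Among the other genes of the Obp56 cluster, 9 genes over 171.0 kb of 2R, Obp56d was the highest. It was at 151, 189 and 297 CPM in females, 214, 275 and 140 CPM in males and 164, 228 and 286 CPM in metafemales, with groups that overlapped throughout (log2 fold change of metafemales over females 0.15 ± 0.30, SE, adjusted p = 0.724). Obp56h, which has been linked to mating behaviour of males, was at 2.05 ± 0.457 CPM in females, 2.61 ± 0.613 CPM in males and 2.40 ± 0.459 CPM in metafemales (SD, n = 3). Obp56b was at 2.28 ± 0.519, 2.89 ± 0.656 and 2.71 ± 0.107 CPM in females, males and metafemales (SD, n = 3). Obp56c was at 0.772 ± 0.319, 1.10 ± 0.044 and 0.803 ± 0.0876 CPM in the same order (SD, n = 3). None of these 4 was called in any comparison. Obp56f had no count, and Obp56g was at or below 0.0324 CPM in every group mean.

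Obp44a, known from glia of the central nervous system, was at 146, 148 and 178 CPM in females, 205, 189 and 201 CPM in males and 132, 126 and 129 CPM in metafemales. The groups did not overlap, with males highest and metafemales lowest, but the log2 fold changes were -0.27 ± 0.10 in metafemales against females (SE, adjusted p = 0.0814), 0.25 ± 0.17 in males against females (SE, adjusted p = 0.436) and -0.49 ± 0.19 in metafemales against males (SE, adjusted p = 0.0759), and none was called. The 6 glial markers summed to 422 to 568 CPM in females, 333 to 605 CPM in males and 275 to 393 CPM in metafemales, and repo, the transcription factor that defines glia, was at 2.98, 3.61 and 2.83 CPM on average. Most of the sum came from Gs2, at 364, 357 and 212 CPM on average in females, males and metafemales. Its log2 fold change of metafemales over females was -0.77 (edgeR, adjusted p = 0.02), which was not called. The only glial marker called was moody, higher in metafemales than in females (1.18, edgeR adjusted p = 0.000893) and than in males (1.36, edgeR adjusted p = 0.000467). Obp44a shares 205 exonic bases with Pabp2 on the opposite strand, which was at 44.01, 48.3 and 25.5 CPM on average in females, males and metafemales.

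Of the remaining genes above 1 CPM, none was called in any comparison. Obp28a, an abundant gene of the adult antenna, was at 3.70, 4.13 and 3.99 CPM in females, 3.59, 5.15 and 4.51 CPM in males and 3.47, 3.60 and 2.56 CPM in metafemales (log2 fold change -0.28 ± 0.17 against females, SE, adjusted p = 0.234). Obp49a, which takes part in the suppression of sweet taste by bitter compounds, was at 1.98 ± 0.18 CPM in females, 2.15 ± 0.413 CPM in males and 2.61 ± 0.644 CPM in metafemales (SD, n = 3). Obp58c was at 1.76 ± 0.681, 1.78 ± 0.70 and 2.25 ± 0.135 CPM in the same order (SD, n = 3). Taking the genes with at least 1 CPM and those called together, 25 Obp genes have been described here by their levels, and 12 of them were called in no comparison.

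The 26 other members had group means of at most 0.939 CPM, reached by Obp47a in males. Of these 26, Obp47a, Obp46a, Obp50e, Obp84a, Obp58b, Obp58d and Obp19d were tested in all 3 comparisons and called in none with all libraries in the fit, and Obp73a was tested against females only. Without metafemale replicate 2, Obp19d was called lower in metafemales than in males (log2 fold change -3.96, adjusted p = 0.0305). Obp46a had 28, 28 and 51 counts in females, 37, 30 and 26 in males and 0, 14 and 17 in metafemales, which is lower in every metafemale library than in any other, with a log2 fold change against females of -1.81 (adjusted p = 0.182). Several of the quiet members lie over other genes. Obp47b shares 611 exonic bases with CG7741, Obp84a shares 663 bases with Dtwd2 and Obp93a 492 bases with CG5793, all on the opposite strand. Among the members under the filter, Obp57c had 0, 0 and 5 counts in females, none in males and 7, 3 and 7 in metafemales. It was called higher in metafemales than in males by DESeq2 (adjusted p = 0.039) and by edgeR without the filter (adjusted p = 0.0243).

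Chemosensory receptor genes were low in whole larvae, with 2 of the 59 Or genes, 0 of the 60 Gr genes and 5 of the 58 Ir genes at a mean of at least 1 CPM in any group. Among the 59 odorant receptor genes (Or), 6 were tested in metafemales against females, and 0 were called by edgeR, 0 had an unadjusted p under 0.05 and 0 were called by DESeq2. Of 60 gustatory receptor genes (Gr), 16 were tested and 6 were called higher: Gr64a, Gr64c, Gr64e, Gr64f, Gr77a and Gr94a, the Gr64 genes being sugar receptors. Of 58 ionotropic receptor genes (Ir), 11 were tested, with Ir21a and Ir76a called, 1 in each direction. Of all genes tested in metafemales against females, 9.75% were called higher and 4.83% lower. In males against females, edgeR called 4 of 14 tested Ir genes and 2 of 13 tested Gr genes higher, beside 17.6% of all genes tested. In that comparison edgeR called 0 of 6 tested Or genes, while DESeq2, run without the filter, called 5. The olfactory co-receptor Orco was at 0.162 CPM on average in females, 0.122 in males and 0.504 in metafemales, and its log2 fold change was 1.60 ± 0.53 against females (SE, adjusted p = 0.0527) and 2.21 ± 0.43 against males (SE, adjusted p = 0.00663). Of 9 tested single genes of odour transport and detection, Orco and EbpIII were called higher in metafemales than in males, where 9.21% of all genes tested were. The single genes of odour transport differed widely in level. Those above 1 CPM were EbpIII at 15.7, 13.2 and 25.3 CPM, Phk-3 at 40.2, 39.5 and 35.0 CPM, Snmp1 at 3.40, 3.81 and 3.10 CPM and Snmp2 at 6.18, 8.22 and 3.68 CPM on average in females, males and metafemales. Os-C was at 0.186, 0.296 and 0.134 CPM and a10 at 0.230, 0.193 and 0.273 CPM in the same order, and a5 had no count. The 12 CheB genes, of which 1 reached 1 CPM, summed to 48.5 ± 7.91, 27.1 ± 4.34 and 34.0 ± 27.8 CPM in the same order (SD, n = 3). The odorant-binding protein gene lush, which is outside the set because its symbol does not begin with Obp, was at 0.156, 0.191 and 0.232 CPM in that order and was not called. Summed over Orco, Ir25a, Ir8a and Ir76b, the co-receptors that mark chemosensory neurons, the level was 0.362 to 0.472 CPM in females, 0.313 to 0.533 CPM in males and 0.637 to 0.859 CPM in metafemales. Orco carried this difference, since Ir25a was at 0.239 CPM on average in females and 0.224 CPM in metafemales (log2 fold change -0.07, adjusted p = 0.895).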

How the data were processed

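The authors deposited 1 table of expected counts per transcript for the 9 libraries, estimated by StringTie from HISAT2 alignments, with no normalization. Use of strand is not given in the sources used here. The table holds 42937 transcripts. Of the 34919 FlyBase transcripts, 34750 had a gene in the annotation of Ensembl release 115 (assembly BDGP6.54), and their counts were added up per gene (17714 genes). The 8017 assembled transcripts counted only toward library totals.

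CPM was computed on the column total. Comparisons used edgeR 4.0.16 in R 4.3.3 (glmQLFit and glmQLFTest, TMM, filterByExpr) on the 6 libraries compared, with Benjamini-Hochberg adjustment over all genes tested and no rounding needed. Calls required a log2 fold change over 1 in size and adjusted p under 0.05. Fold bounds used 3 counts per library. The tests were checked on simulated counts. Level tables used Python 3.11.15.

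Levels or counts are given for members with a mean of at least 1 CPM in any group or called in any comparison. They are given per library, except for Obp56b, Obp56c, Obp56h, Obp49a and Obp58c, which have group means with SD. The members and lists were chosen with earlier results of these data known. Alternatives were DESeq2 1.42.0, RLE, column totals, no filter, 10 counts in every library, 1 fit over all libraries, a replicate block, no fold threshold and leaving out each library. Summing overlapping genes was added after the data were seen. Of the single chemosensory genes, PebIII was not analysed here.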

Additional observations from a re-analysis of the deposited data

How the results depend on the processing

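In metafemales against females, 5 Obp genes were called, and 4 to 7 under every alternative. All 5 calls were kept in each, except Obp57b where at least 10 counts were required in every library, which removed it. Leaving out a library gave 5 to 7. In males against females, 3 were called, 3 to 4 without a library, 4 by DESeq2 and 0 with at least 10 counts in every library, where the 3 genes could not enter and 0 of the 23 tested members had an unadjusted p under 0.05. In metafemales against males, 13 were called, 11 in each fit without a library, 14 by DESeq2 and 6 with at least 10 counts in every library. Over all genes the same requirement left 533 calls of 2457 in males against females and 2058 of 4255 in metafemales against males, and dropping the fold threshold gave 4636 in place of 1748 in metafemales against females. Column totals without TMM moved the median log2 fold change of all genes from 0.01 to 0.12 in males against females and from -0.13 to -0.31 in metafemales against males, with the same number of Obp calls.

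Replicate numbers are shared between the groups, but same-numbered libraries did not deviate together (correlations 0.02, -0.07 and 0.05 for metafemales and females, 0.13, 0.12 and -0.05 for males and females, 0.03, -0.18 and -0.06 for metafemales and males), and not every library correlated best with its own number. With a replicate block the calls were 5, 2 and 8. The block left out Obp50b in males against females (adjusted p = 0.0772), and Obp56i, Obp69a, Obp83b, Obp83cd and Obp83g in metafemales against males (adjusted p = 0.0562 to 0.0831).

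Of the alternative log2 fold changes of the single genes, 820 kept direction and side of the threshold, 24 fell below it, 10 passed it and 36 changed sign. Of these 36, 2 had an adjusted p under 0.05, namely Obp57d summed with Cpr57A, at -1.66 against females and -2.01 against males, and in the others the gene was not called in that comparison. In males against females, column totals gave 0.0175 for Obp58c, and the replicate block gave -0.0012 for Obp49a, -0.045 for Obp56e and -1.58 for Obp57d. In metafemales against males, column totals gave -0.0917 for Obp56b, -0.12 for Obp56h and -0.0339 for Obp57d, and Obp56h was -0.0198 with all 9 libraries in 1 fit and -0.0339 where every library had to hold 10 counts. The other sign changes came from leaving out a library. The ranges were then, for metafemales against females, -0.14 to 0.44 for Obp56c, -0.0703 to 0.42 for Obp56d and -0.40 to 0.0515 for Obp99a. For males against females they were -0.11 to 0.20 for Obp28a, -0.11 to 0.0794 for Obp49a, -0.31 to 0.12 for Obp56d, -0.25 to 0.79 for Obp56e, -3.45 to 1.71 for Obp57d, -0.38 to 0.25 for Obp58c, -0.19 to 0.38 for Obp83ef, -0.18 to 0.93 for Obp83g, -0.14 to 0.45 for Obp99c and -0.0662 to 0.53 for Obp99b. For metafemales against males they were -0.0837 to 0.24 for Obp56b, -0.18 to 0.19 for Obp56h and -0.38 to 3.88 for Obp57d. The cause was not tested. Cluster ratios moved only when a library was left out. Metafemales over females ranged over 0.259 to 0.38 for Obp50, 1.02 to 1.42 for Obp56, 0.948 to 3.63 for Obp57, 1.03 to 1.55 for Obp58, 0.997 to 1.32 for Obp83 and 0.334 to 0.398 for Obp99. Males over females ranged over 2.7 to 3.97, 0.853 to 1.19, 0.0962 to 3.67, 0.827 to 1.29, 1.05 to 1.39 and 1.11 to 1.42 in the same order. The highest Obp57 and Obp58 ratios of metafemales came without female replicate 3, and 0.0962 without male replicate 1. The Obp57 ratios rest on Obp57d, whose transcript is shared with Cpr57A. For Obp57d and Cpr57A summed, the ratio of metafemales over females was 0.314. Calls among the lowest members (Obp50a, Obp57c and Obp83a) depended on the filter and the tool.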

Other observations

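Counts were also divided unevenly between the annotated transcripts of other Obp genes. Of the counts of Obp56h, one of its transcripts took 94.8, 93.5 and 54.8% in females, 94.8, 95.9 and 96.4% in males and 55.6, 96.3 and 54.1% in metafemales, so the share stood near one of 2 levels in each library while the gene sum did not differ past the threshold. Of the counts of Obp57b, the transcript that held all counts in the 3 females and in male replicate 2, the only male library with any, held 9.38, 84.2 and 9.09% in metafemales. These shares were estimated by the authors' software from reads of largely shared exons and were not tested.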
